A study of Rattus norvegicus with 6 samples.

Results

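Hippocampal RNA of rats taken 45 days after permanent bilateral common carotid artery occlusion (BCCAo) was compared with that of days 55 and 70. The comparison used 3 of the 6 arrays of the series, chosen because these 3 days were hybridised on the same slide. Each value of a gene is the log2 of the scanner's processed signal minus the 75th percentile of its array. The difference of a gene is its value on day 45 minus the mean of its values on days 55 and 70, all on this log2 scale. The animals were male rats of the strain the labels spell Wister or Wistar, whose common carotid arteries were ligated under isoflurane, and RNA was pooled before labelling. The labels give ages of 15, 16 and 17 weeks for days 45, 55 and 70, beside a description of rats of 12 weeks, so the age of each pool is uncertain. The other 3 arrays held the control at 12 weeks and days 21 and 35, at 13 and 14 weeks, on the other slide. The sources used here give neither the number of animals in a pool nor any sham operation of the controls. Ligation of both carotids leaves the vertebral arteries to supply the brain, so the model is one of reduced flow and not of arrest.

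In the rat this operation gives chronic cerebral hypoperfusion, in which the hippocampus receives less blood for weeks while collateral vessels adapt. Neurons respond to synaptic activity with immediate early genes, whose transcripts appear within minutes and are short-lived, and which encode transcription factors and synaptic proteins. Microglia and macrophages of injured brain make MHC class II molecules, which present peptides to helper T cells, and interferons induce a further set of genes in most cell types.

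There was 1 array per day, so no difference has an error from replicates and no test was possible. The small number of arrays sets the limit of precision. Days 55 and 70 are different conditions, and their difference from each other is given beside the results as a description. On the 3 arrays 74.5% (day 45), 79.2% (day 55) and 77.1% (day 70) of spots were well above background, and the 75th percentile of the signal was 1326, 1285 and 1389 intensity units. Of 17502 genes, 13028 were measured in the comparison and a further 52 were saturated on all 3 arrays. Those of the measured genes above the middle of all genes by mean signal over the 6 arrays, 8690, are called the brighter genes. The SD across genes of the difference between arrays was 0.28 for day 45 and day 55, 0.25 for day 45 and day 70, and 0.25 for day 55 and day 70. Spots of the same probe within an array had a median SD of 0.05 to 0.06, over probes printed 10 times with most spots well above background. For such probes a difference read from 1 spot has an SD of 0.07 from that source alone. The spot SD of dimmer probes was not measured. The hippocampal markers Neurod6 (pyramidal cells), Fibcd1 (CA1) and Prox1 (granule cells) were well above background on all 6 arrays.

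On day 45, 103 genes were at least 2-fold higher than the mean of the later days and above both of them, which is 0.791% of the genes measured, and 46 were at least 2-fold lower and below both (0.353%). With other scalings these counts were 128 and 25 (quantile) or 113 and 29 (cyclic loess). By the same rule day 55 had 97 higher genes (0.721%) and 20 lower (0.149%) against days 45 and 70. Day 70 had 109 higher (0.831%) and 30 lower (0.229%) against days 45 and 55. The 3 comparisons share their arrays. A higher call needed the probe well above background on the named day, and a lower call needed this on both other days. Counts of higher and lower genes therefore come from unlike filters. Of the genes called on day 45, 97 of the higher and 43 of the lower lay in the dimmest when the measured genes were cut into 3 like-sized groups by signal, and 102 and 46 were read from 1 spot. The value was measured on all 3 arrays for 31 higher and 26 lower genes. The others are bounds. There the probe did not clear background on at least 1 array, and it was given the lowest signal that did clear it there, or its own if higher. Of the higher genes 37 were well above background on day 45 alone among the 6 arrays. A second probe was measured for 2 higher and 3 lower genes, it lay on the same side for 1 of each, and for none was it 2-fold.

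Small differences ran more often downward. Day 45 was above both later days for 28.9% of measured genes and below both for 40.7%, and the median difference was -0.02. This went with dimness, since the median was -0.12 in the dimmest of 10 groups of genes and between -0.015 and -0.0056 in the 5 brightest. Among the brighter genes day 45 was above both days for 31.1% and below both for 38.3%. These shares are the background for the counts of gene lists.

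**Figure D1:**
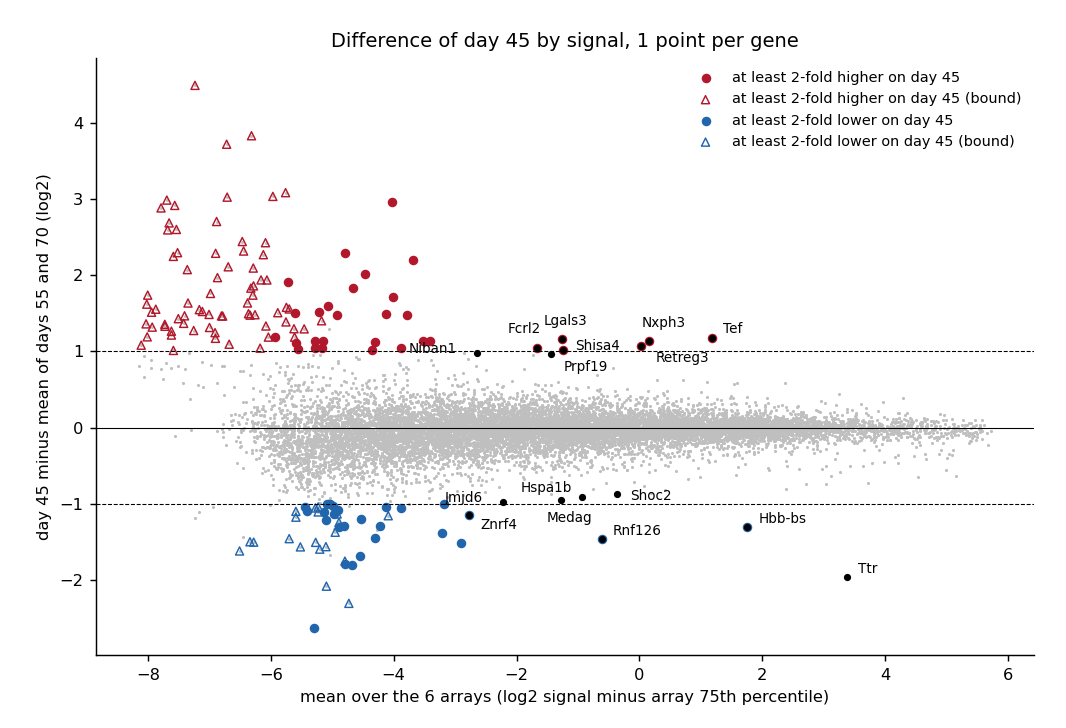
Each point is a gene, with its mean log2 value over the 6 arrays on the horizontal axis and day 45 minus the mean of days 55 and 70 (log2) on the vertical axis. Red and blue points are the 103 higher and 46 lower genes, triangles are bounds, dashed lines mark 2-fold, and black dots with names are the brighter genes with the largest differences; most called genes lie at low signal.

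Among the brighter genes the highest on day 45 was Tef. It encodes a PAR bZIP transcription factor whose RNA cycles with the day. Its probe, at chromosome 7, 120179652 to 120179711 (rn4), was printed 10 times, and it was the only called gene read from 10 spots. Tef stood at 1.33 in the control, 0.34 on day 21, 2.26 on day 35, 1.83 on day 45, 0.82 on day 55 and 0.50 on day 70. Day 45 was 2.25-fold above the later days, while days 55 and 70 differed by 0.32. Within the 6 arrays day 35 was higher still, and day 45 was second.

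Several other bright genes had the same order of arrays, with the control and days 35 and 45 above days 21, 55 and 70. Retreg3, which encodes a receptor for autophagy of the endoplasmic reticulum, stood at 0.25, -0.40, 0.61, 0.60, -0.35 and -0.58 in the order control, 21, 35, 45, 55 and 70 days. Shisa4, a membrane protein gene, stood at -1.10, -1.76, -0.48, -0.71, -1.52 and -1.93, and Prpf19, a core factor of the spliceosome, at -1.17, -2.13, -0.55, -0.94, -1.87 and -1.93. On day 45 Retreg3 was 2.10-fold, Shisa4 2.03-fold and Prpf19 1.95-fold above the later days. Nxph3, which encodes the neurexin ligand neurexophilin-3, had values of 0.50, -0.19 and -1.08 on days 45, 55 and 70 and its second probe gave a difference of 0.90 beside 1.13. Days 55 and 70 themselves differed by 0.89 for Nxph3.

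The remaining bright genes that stood higher had other orders. Lgals3, the gene of galectin-3 of activated microglia and macrophages, stood at -2.14 in the control, 2.13 on day 21, -2.05 on day 35, -1.06 on day 45, -2.23 on day 55 and -2.21 on day 70. Day 45 was 2.23-fold above the later days, which differed by 0.01, and it was second to day 21 among the 6 arrays. Fcrl2, an Fc receptor-like gene, was also highest on day 21 (0.63) and stood at -1.38, -3.12 and -1.74 on days 45, 55 and 70. Niban1, a stress-response gene, was at -2.15, -3.60 and -2.67 on these days, and its gap to day 70 was 0.51.

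Of the bright genes that stood lower on day 45, Ttr had the largest difference and did not pass the rule. It encodes transthyretin, the thyroid hormone carrier that choroid plexus makes in great amount. Ttr stood at 1.53, 5.66, 4.69, 1.5, 1.48 and 5.44 in the order control, 21, 35, 45, 55 and 70 days. Day 45 equalled day 55 to within 0.02, so the difference of -1.96 comes from day 70. Rnf126, which encodes a ubiquitin ligase, stood at -1.26 on day 45 against 0.09 and 0.30, and its control value of -1.32 was as low. Znrf4, another ubiquitin ligase gene, was at -3.89 on day 45 and between -2.90 and -2.33 on the other 5 arrays. Day 45 was therefore the lowest array for Znrf4, 2.21-fold below the later days.

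Smaller values below both later days were found for Jmjd6, which encodes an oxygenase of RNA processing proteins (-0.97), Medag, an adipogenesis gene (-0.95), and Shoc2, the scaffold of the Ras to Raf pathway (-0.88). For Jmjd6, Medag and Shoc2 the day 45 array was the lowest of the 6. Hspa1b, an inducible Hsp70 gene read from 10 spots, stood at -1.48, 0.15 and -1.28 on days 45, 55 and 70. Its difference of -0.91 therefore lay in day 55, and days 45 and 70 were 0.20 apart.

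**Figure D2:**
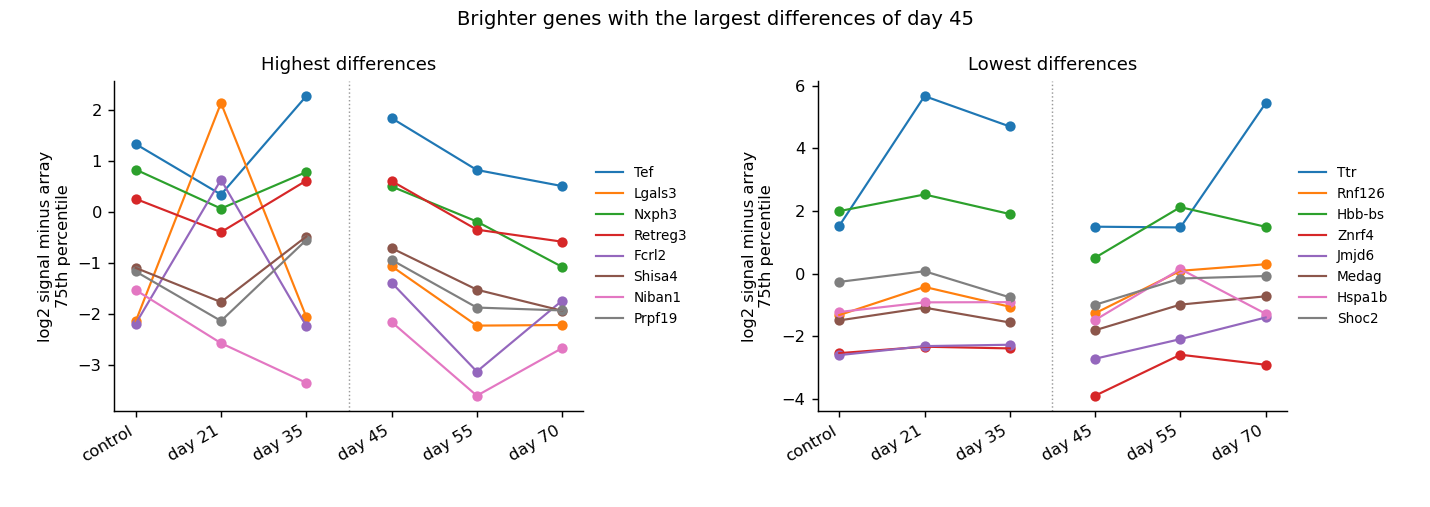
Log2 value on each of the 6 arrays for the 8 highest (left) and 8 lowest (right) differences of day 45 among the brighter genes; each line is a gene, filled points are well above background and the dotted line separates the slides. Tef, Retreg3, Shisa4 and Prpf19 run in parallel, and Ttr is low on day 45 and day 55 alike.

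Dimmer genes gave larger differences. Measured on all 3 arrays, the highest were Spdef (7.78-fold), an epithelial ETS factor, P2rx4 (4.60-fold), the ATP-gated channel of microglia and neurons, and Cenpk (4.04-fold) of the centromere. Tcam1 (3.75-fold), Mmp25 (3.56-fold), Qrich2 (3.26-fold) and Chrne (2.86-fold) followed. P2rx4 stood at -1.95 on day 45 and between -4.34 and -3.51 on the other arrays, a gap of over 1.5 to each. Spdef stood at -1.57 on day 45 against -4.91 to -4.28 elsewhere, but its second probe was not well above background on day 45 and stood near the floor, at -5.79 and -5.97, on days 55 and 70. The high value of Spdef thus rests on 1 probe. Tcam1 and Qrich2 were within 1 log2 unit of another array of the first slide, with Qrich2 higher on day 21 (-2.52) than on day 45 (-3.29).

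The lowest of the dim genes were Stard5 (6.19-fold), a sterol-binding protein gene, Pced1b (3.48-fold), Nherf4 (3.44-fold), a PDZ scaffold gene, and Frs3 (3.22-fold), an adaptor of FGF receptors. Noxo1 (2.84-fold), an NADPH oxidase organiser, Lypd5 (2.73-fold) and Otx2 (2.61-fold) came next. Noxo1 stood at -4.44 on day 45, and on the other 5 arrays it lay between -3.23 and -2.09. Day 45 was thus the lowest array for Noxo1 by more than 1 log2 unit. Stard5 stood at -5.79, -4.32 and -2.0 on days 45, 55 and 70, and Nherf4 at -5.54, -5.22 and -2.29, Frs3 at -5.15, -4.49 and -2.44. On the first slide Stard5 was not well above background. For Stard5, Nherf4 and Frs3 the high array was day 70, and days 45 and 55 lay nearer to each other. Lypd5 was low on both day 45 (-5.68) and day 70 (-5.65).

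The highest bounds were at least 22.4-fold for C14h1orf146, a meiosis gene, at least 14.2-fold for Hoxc12, at least 13.1-fold for the bitter taste receptor gene Tas2r123 and at least 8.46-fold for Lrsam1, a ubiquitin ligase gene. C14h1orf146 and Hoxc12 were well above background on day 45 alone of the 6 arrays, and Tas2r123 on day 45 and in the control (-2.83 and -2.85). The second probe of C14h1orf146 was not well above background on any array, and that of Lrsam1 was not so on day 45 (-6.53) while it was on day 55 (-6.47) and on the first slide (-5.86 to -5.68). The lowest were at least 4.94-fold for Mpo, the neutrophil enzyme myeloperoxidase, which stood at -5.34 on day 55 and -2.43 on day 70, and at least 4.23-fold for Fsip1, 3.37-fold for Scart1 and 3.07-fold for Mgam. Chemoreceptor genes (olfactory, vomeronasal, taste and trace amine), grouped after their values were seen, made up 17 of the 103 higher genes and 2 of the lower. That was 11.6% of 164 measured members, of which 143 lay in the dimmest group. Of all 4338 genes in that group 3.23% were called. Of the 17 higher members 8 were well above background on day 45 alone of the 6 arrays. A gene of that kind could be called only as higher. The share called therefore depends on the filter, and no result about these families is drawn from it. Receptors of these families have similar sequences and their names are uncertain.

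Immediate early genes stood lower on day 45 as a list. Of 36 measured members, 27 were below both later days and 4 above both, and the median difference was -0.21, against -0.02 over all genes. Among the brighter genes 20 of 25 members were below both, where 38.3% of all genes were, and days 55 and 70 differed by a median of 0.08. None was 2-fold apart. The list was chosen with results of these data known, and its count is a description. Genes printed 10 times gave the same picture, with 7 of 9 below both days and a median of -0.24. Of 7 further probes of the members 6 lay below the mean of the later days.

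The transcription factors of the list, 13 of 17 below both days, had the largest differences. Egr2, a zinc finger factor read from 10 spots, stood at -3.95, -3.74 and -4.04 in the control and on days 21 and 35, and at -4.75, -3.55 and -4.16 on days 45, 55 and 70. Day 45 was the lowest of the 6 arrays and 1.85-fold below the later days. Klf4 stood at -2.99 on day 45 against -2.0 and -2.47, and Atf3, a stress-induced factor, at -4.63 against -3.59 and -4.22. Both were lowest on day 45 of all 6 arrays. Fos, the partner of Jun in AP-1, stood at -3.46 on day 45 against -2.85 and -3.19, a difference of -0.44. Nr4a1, an orphan nuclear receptor gene read from 10 spots, stood at 1.01 on day 45 against 1.44 and 1.23, and its day 21 value of 0.78 was lower. Egr1 stood at 0.78 on day 45, 1.06 on day 55 and 0.94 on day 70 at its 10 spots, and its second probe differed by -0.91 where the first differed by -0.22. The probes of Egr1 agree in direction and not in size.

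The effector genes had smaller differences, with 14 of 19 below both days. Arc, which encodes the synaptic capsid protein of plasticity, stood at 2.14, 1.79, 2.16, 1.80, 2.47 and 2.18 in the order control, 21, 35, 45, 55 and 70 days over 10 spots. Its probe lies at chromosome 7, 112772025 to 112772084 (rn4). Day 45 was 1.44-fold below the later days and level with day 21. Per1, which is also a clock gene, stood at -5.76 against -5.09 and -5.25, and was the lowest of the 6. Over the whole list the members above both later days were Ier2 (0.46, 10 spots), a nuclear regulator gene, Nptx2 (0.21), a synaptic pentraxin gene, Plk3 (0.18) and Vgf (0.11). Bdnf, the neurotrophin gene, lay between the later days.

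Across all 6 arrays, day 45 was the lowest for 13 of the 34 immediate early genes well above background on every array, where it was the lowest for 21.5% of all such genes and the highest for 12.1%. The other slide enters this count. Fosb, a partner of Jun like Fos, stood at 0.10, 0.08 and -0.36 on the first slide and at -1.43, -1.13 and -1.19 on the second, so all 3 arrays of the second slide were the lower ones. Slide and day cannot be told apart in such values.

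**Figure D3:**
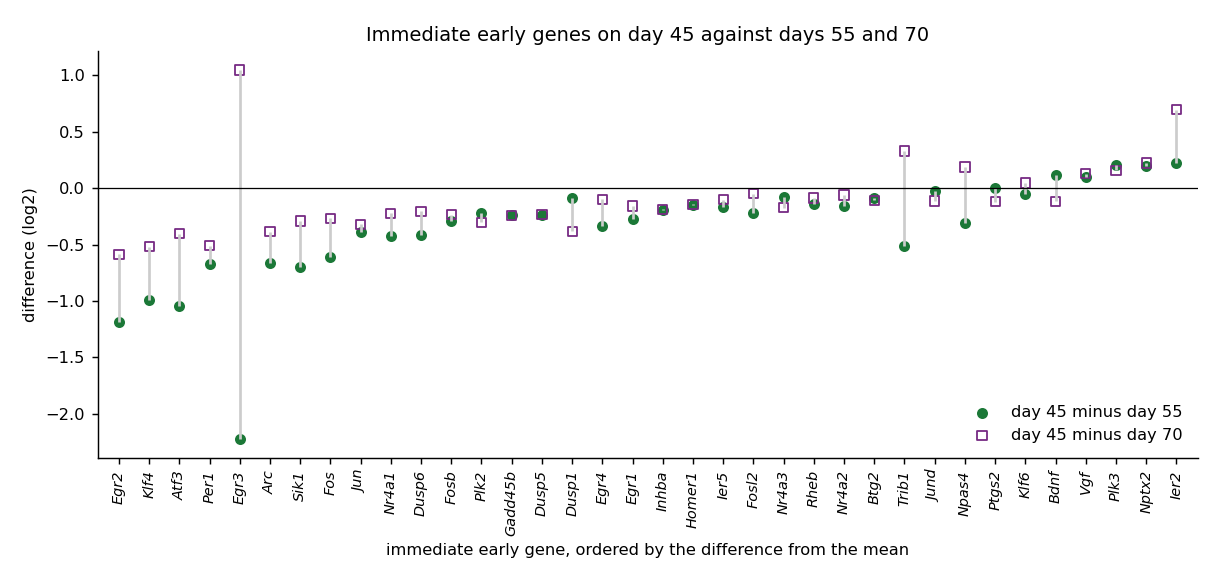
Difference (log2) of day 45 from day 55 (green circles) and from day 70 (open squares) for the 36 measured immediate early genes, ordered by the difference from their mean. For 27 genes both points lie below 0; Egr3, with the widest pair, was high on day 55 at this probe.

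Promoters of the list are shown because transcription of these genes in response to activity is known to run through the cAMP response element (CRE), bound by CREB, and the serum response element (SRE), bound by SRF. The 250 bases before the RefSeq start (build GRCr8) were searched on both strands for the CRE letters TGACGTCA and for the SRE by its consensus. Of 36 measured members 29 had a promoter in the table. The CRE was in 6 of 29 (20.7%) and in 1.70% of 27457 promoters in all, and the SRE in 4 of 29 (13.8%) and in 1.5%. Stretches of 4 promoters follow, 5′ to 3′ on the strand of the gene, with the CRE or SRE in capitals. They are Egr2 at chr20:21054495-21054544 on the minus strand and Dusp5 at chr1:262543672-262543731 on the plus strand, both with the SRE, and Plk2 at chr2:43702450-43702497 and Ier2 at chr19:40399287-40399334, both on the plus strand with the CRE.
Egr2: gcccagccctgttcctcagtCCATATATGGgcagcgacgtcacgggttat
Dusp5: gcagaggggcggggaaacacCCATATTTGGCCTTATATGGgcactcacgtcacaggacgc
Plk2: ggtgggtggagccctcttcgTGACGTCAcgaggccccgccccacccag
Ier2: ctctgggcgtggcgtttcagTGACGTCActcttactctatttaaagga
Egr2 and Dusp5, a phosphatase gene of ERK (-0.24 over 10 spots), stood below both later days, as did Plk2, a polo-like kinase gene (-0.26), whereas Ier2 stood above both. The CRE thus occurred on both sides, in Ier2 and Vgf above and in Plk2, Dusp1 (-0.23, but 0.11 in the authors' deposited table), Btg2 (-0.10) and Jund (-0.07) below. A match is a description of the letters and not a site of binding.

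MHC class II genes stood higher on day 45 in every member measured. All 6 measured of 10 listed were above both later days, where 28.9% of all genes were, with a median of 0.48, and days 55 and 70 differed by a median of 0.20. RT1-Da, an alpha chain gene of class II (chromosome 20, 4641104 to 4641163, rn4), stood at -5.89 in the control, -2.02 on day 21, -4.88 on day 35, -3.59 on day 45, -4.55 on day 55 and -4.88 on day 70. Day 45 was 2.19-fold above the later days, and RT1-Da was the only member past 2-fold. Cd74, the invariant chain that escorts class II, stood at -2.77, 0.54, -2.55, -1.23, -2.03 and -2.33 in the same order, 1.94-fold above the later days on day 45. For both genes day 21 was the highest array and day 45 the second.

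The beta chain genes differed by probe in size and not in direction. RT1-Db1 differed by 0.33 at its brightest probe and by 1.63 at its second, and RT1-Bb by 0.64 and 0.52. The DM genes, whose products load peptides, differed by 0.24 (RT1-DMa) and 0.12 (RT1-DMb), and for RT1-DMa days 45 and 70 were equal to 2 decimals (0.09). RT1-Ba, RT1-DOa and Ciita, the master regulator of class II, were not well above background on any array, and RT1-DOb was so on day 55 alone of the 3. Names within the RT1 family are uncertain because its members are alike. MHC class I and peptide loading genes had a median of -0.04, with 4 of 15 above both days and 6 below.

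Markers of the cells that carry class II went both ways. Above both later days were 46.7% of microglial, 40.0% of phagocyte and 45.5% of lymphocyte and granulocyte genes, against 28.9% of all genes. Below both were 33.3%, 33.3% and 45.5%, against 40.7% of all genes. Homeostatic microglial genes had a median of 0.09 (7 of 15 above both days and 5 below), macrophage and phagocyte genes one of -0.01 (6 and 5 of 15), and lymphocyte and granulocyte genes one of 0.00 (5 and 5 of 11). The microglial median was 0.028 without day 55 and 0.0072 with the mean of all probes, and the macrophage median was 0.07 with cyclic loess and 0.10 in the authors' deposited table. Csf1r, the growth factor receptor of microglia, differed by 0.39 at its brightest probe and -0.34 at the other, Tmem119 by 0.37 over 10 spots and -0.57 at its other probe, and Selplg by 0.35. Cx3cr1, the fractalkine receptor gene, stood at 2.02 on day 45 against 2.54 and 2.52 and was lowest on day 45 of all 6 arrays. The microglial gene P2ry12 differed by -0.16 and Aif1 by -0.13. Beside Lgals3, the lysosomal glycoprotein gene Gpnmb stood at -1.02 on day 45 and -1.55 on both later days, and the cathepsin gene Ctsz differed by 0.35. Cd68 differed by 0.17 and Spp1 by -0.09 over 10 spots. In pooled tissue, more cells of a type and more RNA per cell cannot be told apart.

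Interferon-induced genes were above both later days in 12 of 24 measured members and below both in 2, Mx2 (-0.14) and Ifih1 (-0.12, but 0.07 with quantile normalization). Their median was 0.07, or 0.14 with quantile normalization. Among the brighter genes 7 of 17 members were above both and 1 below, with a median of 0.03. Over all brighter genes 31.1% were above both. The chemokine gene Cxcl10 stood at -5.80 in the control, -2.56 on day 21, -6.28 on day 35, where it was not well above background, and -4.94, -6.18 and -5.97 on days 45, 55 and 70. Day 45 was 2.19-fold above the later days, whose values lay near the lowest signals well above background there (-6.56 and -6.53). Ifit3 stood at -4.43 on day 45 against -5.32 and -5.23. Usp18, which removes ISG15 from proteins, stood at -3.47 against -4.31 and -4.16 (0.25 at its second probe), and Rsad2 (viperin) at -2.04 against -2.73 and -2.57. For each of these 4 genes the later days were closer to each other than to day 45. The transducers Stat2 (-0.03) and Irf9 (-0.02) hardly differed, and Ifit1, Cxcl11 and Oasl were not well above background on any array.

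Complement and reactive astrocyte genes were above both days in 10 of 18 and 12 of 23 members, below both in 7 and 5, with medians of 0.11 and 0.10. Without day 55 the complement median was 0.043, and the reactive astrocyte median was 0.17 without day 55, 0.035 without day 70 and 0.21 and 0.22 with quantile normalization and cyclic loess. The central complement gene C3 stood at -0.17 on day 45 against -0.58 and -0.57, the classical pathway protease gene C2 at -2.82 against -3.50 and -3.12, and the inhibitor gene Serping1 at 0.11 against -0.26 and -0.28. Below them were Cfi, complement factor I (-0.89, 10 spots), and C5 (a bound of -0.64). Gfap, the astrocyte filament gene, stood at 0.00 on day 45 against -0.43 and -0.30 over 10 spots, 1.29-fold higher. Tgm1, a transglutaminase gene, was 2.07-fold higher, Steap4 differed by 0.44 and Serpina3n by a bound of 0.60. The astrocyte glutamate transporter gene Slc1a2 went the other way, by -0.64 at its brightest probe and -0.15 at its second.

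Red blood cell genes stood lower. Of 14 measured, 10 were below both later days and 1 was above both, with a median of -0.37, while days 55 and 70 differed by a median of 0.43, so day 45 was the lowest of 3 spread values. The alpha globin gene Hba-a1 stood at 5.30, 5.49, 5.09, 4.45, 5.06 and 4.62 in the order control, 21, 35, 45, 55 and 70 days. The beta globin gene Hbb stood at 4.37, 4.59, 4.36, 3.64, 4.25 and 3.80, and Hbb-bs at 2.0, 2.53, 1.90, 0.51, 2.12 and 1.5. Day 45 was the lowest of the 6 arrays for Hba-a1, Hbb and Hbb-bs, and 2.46-fold below the later days for Hbb-bs. The summed level of the 12 members well above background on every array, in units of the array's 75th percentile, was 46.5 on day 45, 74.3 on day 55 and 53.7 on day 70, and 75.8 to 97.5 on the first slide.

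The globin genes are alike, and whether a probe also binds the RNA of another globin gene was not tested. Second probes of Hba-a1 and Hbb differed by -0.32 and -0.23. Hba-a3 was 2.0-fold lower, Hbz, an embryonic globin, differed by a bound of -0.47, and the heme synthesis gene Alas2 by -0.30. Leaving out day 55 gave a median of -0.17 and leaving out day 70 one of -0.60. The part of blood left in the tissue in other values of this comparison was not tested.

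Choroid plexus and ependymal genes had the lowest median, -0.47, with 6 of 12 measured below both days and none above. The median for day 45 against day 55 was -0.16 and against day 70 -0.87. The summed level of the 10 members well above background on every array was 6.28 on day 45, 6.27 on day 55 and 48.2 on day 70. Kcnj13, a potassium channel gene of choroid plexus, was not well above background on day 45 and stood at -6.44 on day 55 and -3.29 on day 70. Sostdc1, read from 10 spots, was at -2.63 on day 70 and not well above background on days 45 and 55, so the rule left it out. Otx2, the homeobox factor of choroid plexus, stood at -4.31 on day 45 against -2.89 and -2.96, with a control value of -4.27, and Slc4a5, a bicarbonate transporter gene, stood at -6.17, -5.73 and -4.42. Aqp1, the water channel gene, differed by a bound of -0.95 over 10 spots. Thus for Ttr, Kcnj13 and Sostdc1 day 45 was like day 55, and for Otx2 it was apart from both. Every value that averages in day 70 has this set of genes beside it, and its part in them was not tested.

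**Figure D4:**
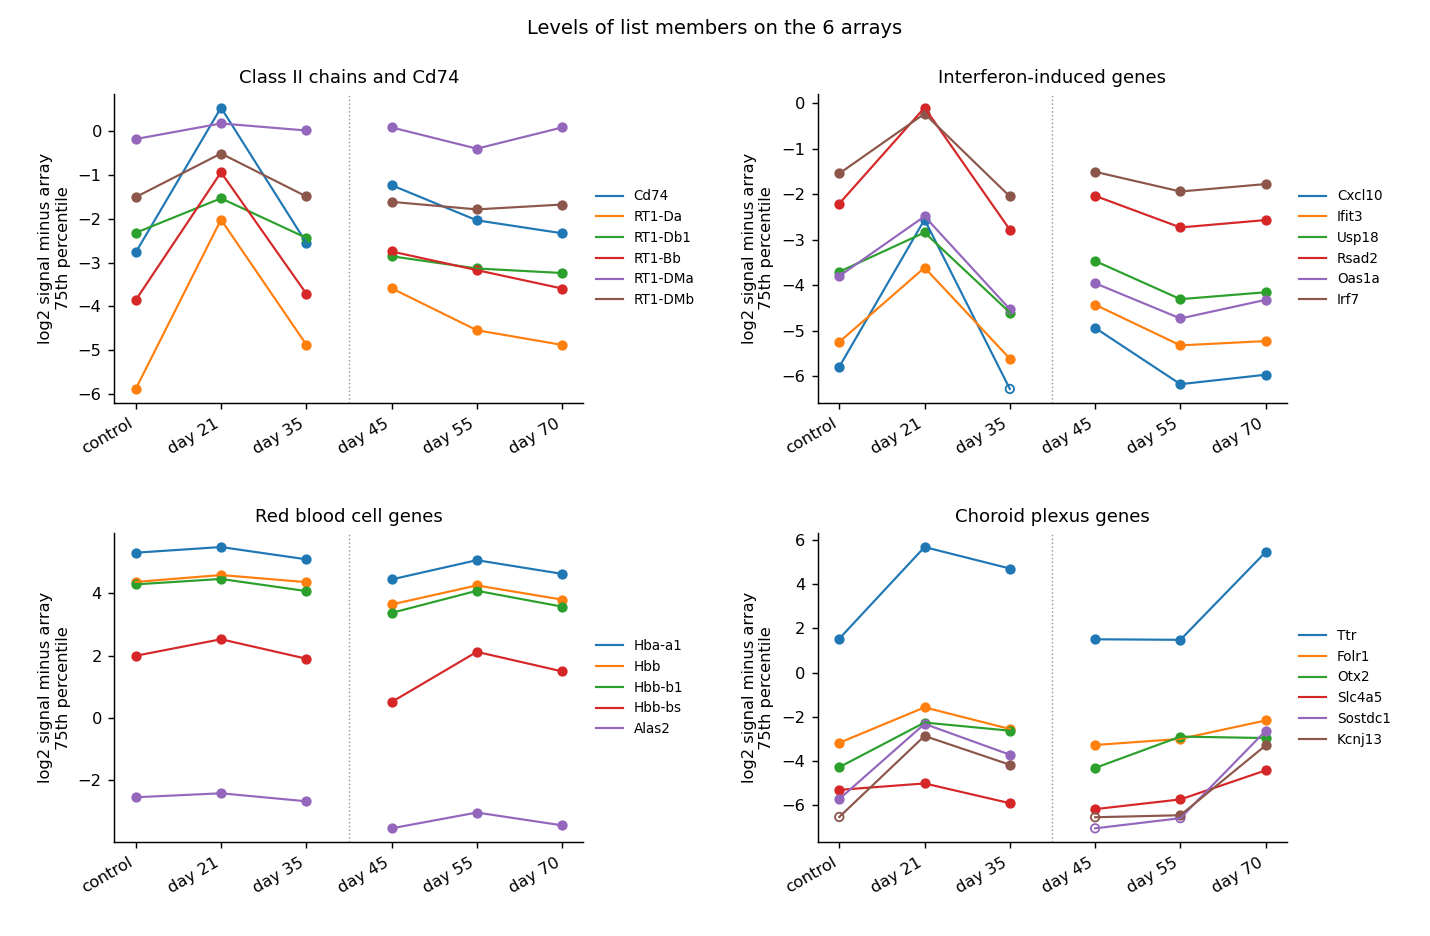
Log2 value on the 6 arrays for members of 4 lists; lines join arrays of the same slide, the dotted line separates the slides, and open points were not well above background. Class II and interferon-induced genes are highest on day 21 and stand above days 55 and 70 on day 45 (RT1-DMa only just above day 70), globin genes are lowest on day 45, and Ttr, Sostdc1 and Kcnj13 are high on days 21, 35 and 70.

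Circadian clock genes stood apart in both directions. Of 22 measured, 14 were below both later days and 3 above, Tef, Nr1d1 and Dbp, with a median of -0.12. The median was -0.049 with quantile normalization and -0.021 in the authors' deposited table, so the shift of the list depends on the scaling. Nr1d1, the REV-ERB-alpha repressor gene, stood at -2.15 on day 45 against -2.87 and -2.50. Dbp, a PAR bZIP factor like Tef, stood at 3.52 against 3.26 and 3.30, and its 3 probes differed by 0.24, 0.22 and 0.31. Clock stood at -3.16 on day 45 against -2.43 and -2.58 and was lowest on day 45 of all 6 arrays, with -0.56 at its second probe. Its partner Bmal1 differed by -0.13, Per2 by -0.02 over 10 spots and the third PAR bZIP gene, Hlf, by -0.34. The sources used here do not state the hour at which each pool was taken.

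The E-box CACGTG, to which the CLOCK and BMAL1 pair binds, was in the 250 bases before the start of 4 of 18 clock genes with a promoter in the table (22.2%), in 6 of 29 immediate early genes (20.7%) and in 5.79% of all promoters. The stretches of Tef, which stood highest of the list, and of Bhlhe41, a repressor of this pair that stood lower, show it in capitals. They lie at chr7:115206609-115206654 on the plus strand and chr4:180569378-180569423 on the minus strand (GRCr8).
Tef: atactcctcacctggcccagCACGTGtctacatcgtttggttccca
Bhlhe41: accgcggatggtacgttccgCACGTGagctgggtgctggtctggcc
The same letters stood before a gene above both later days (Tef, 1.17) and a gene below both (Bhlhe41, -0.49), and before Bhlhe40 (-0.04) and Ciart (-0.12), whose small differences were 0.015 and 0.019 with cyclic loess.

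Neuronal lists differed by little. GABA signalling genes were below both later days in 13 of 20 members and above in 2, among them Abat (0.20), the GABA transaminase gene, with a median of -0.05, and among the brighter genes 11 of 17 were below. Among the lower members were the receptor subunit genes Gabra2 (-0.37) and Gabrb2 (-0.26), and no member of the list reached 1.5-fold. Potassium channel genes were below both in 17 of 32, with a median of -0.11 (-0.05 with cyclic loess), from Kcnj10 (-0.50), the astrocyte channel gene, and Kcnj9 (-0.46) to Kcnn1 (0.47) and Kcnc1 (0.56), a channel gene of fast-spiking interneurons. Granule cell markers of the dentate gyrus had a median of -0.11 and a mean of -0.04 (10 of 16 below both and 3 above). Their largest differences were upward, in Mfap4 (0.69) and Lct (0.63), followed by Rfx3 (-0.44) and Dock10 (-0.40). Prox1, the defining factor of granule cells, differed by 0.26. The granule cell median was -0.013 with quantile normalization and -0.034 with cyclic loess. Neuropeptide genes were above both in 14 of 28 and below in 4, Pmch (-0.25), Nmb (-0.14), Nts (-0.13) and Tac3 (-0.05), with Cort at 0.37, Tac1 at 0.28 and Crh at 0.24. In glycolysis 10 of 18 genes were above both and 2 below, with a median of 0.05. That median was 0.02 against day 70 alone, and days 55 and 70 differed by a median of -0.08. The lactate exporter gene Slc16a3 stood at -2.30 on day 45 against -3.22 and -3.34, and Aldoa and Gpi were higher by 0.31 and 0.26.

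Of the 47 lists, 38 had a median between -0.1 and 0.1, 2 lay above and 7 below. In 37 no member was called 2-fold. The size of the median of day 45 exceeded that of day 55 minus day 70 in 22 lists, so in the others the later days differed from each other by as much or more. Medians were -0.02 for oxidative phosphorylation, -0.03 for ribosomal proteins, 0.00 for synaptic vesicle genes, -0.08 for glutamate receptors, -0.03 for hypoxia and 0.01 for heat shock.

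**Figure D5:**
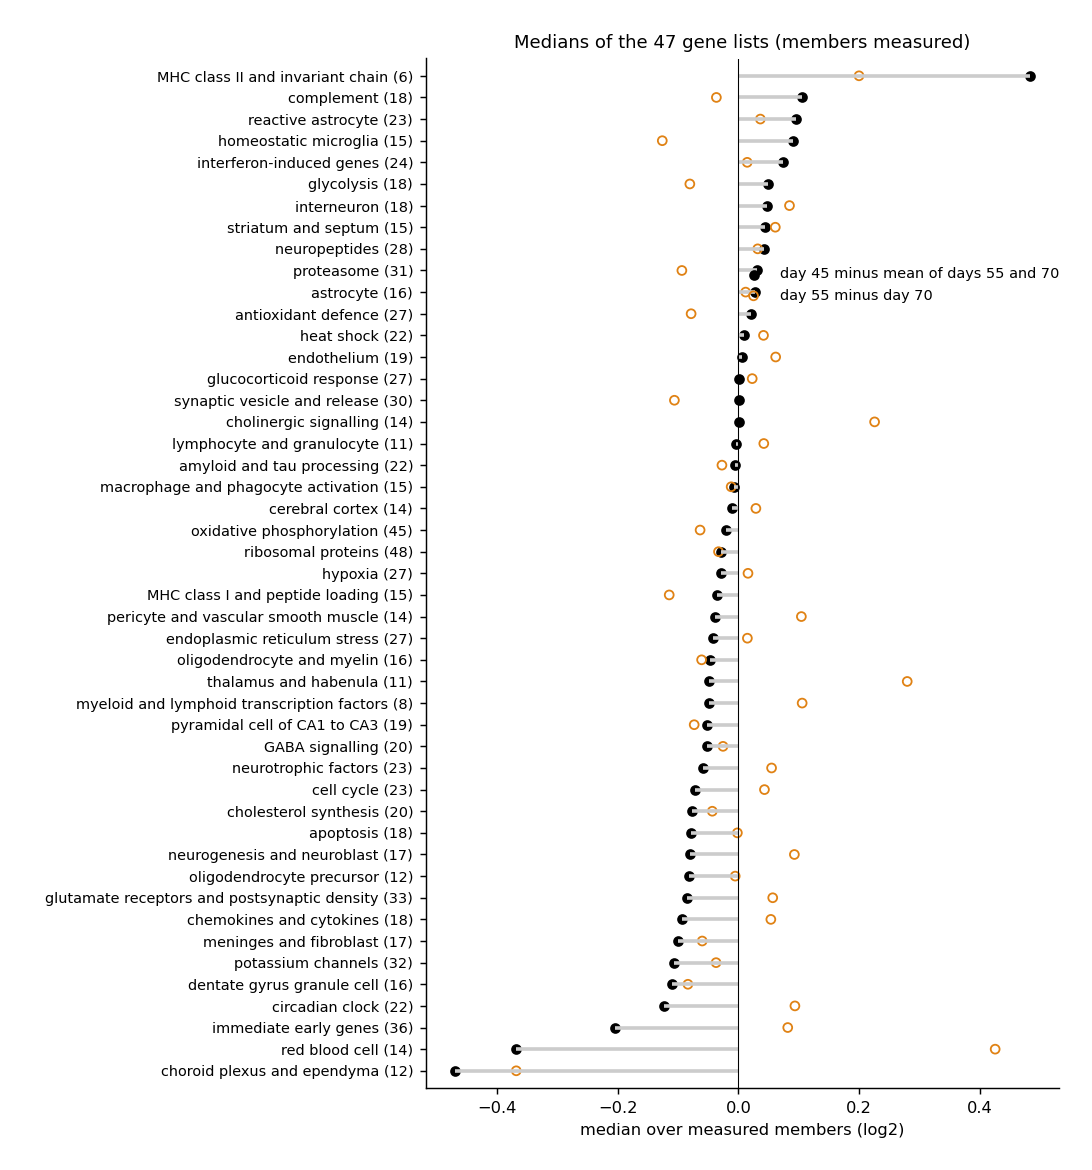
Median over the measured members (their number in brackets) of day 45 minus the mean of days 55 and 70 (black) and of day 55 minus day 70 (open orange) for the 47 gene lists, in log2 units. MHC class II lies highest at 0.48, and red blood cell (-0.37) and choroid plexus genes (-0.47) lowest, where the later days also differed by 0.43 and -0.37.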

How the data were processed

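Total RNA was isolated with TriPure and pooled, then amplified and labelled with a Low RNA Input kit, per the labels' protocols. Each array has a deposited scanner file, made in 1 colour with Agilent Feature Extraction 10.7.3.1 (design 028282, probe positions in rn4) per the file headers, although the labels name Cy5. The deposited intensity used is the scanner's background-subtracted signal, not scaled between arrays. A further deposited table holds linear intensity with near-equal medians (298.0 to 298.4). How the authors made it is unstated, and it served as an alternative. Outlier spots (346 to 459 on the 3 arrays) were left out, log2 signals were scaled to the array's 75th percentile and spots averaged by probe. Of 30367 probes, 17328 were named by accession, 2635 by symbol and 718 by synonym through RefSeq (GRCr8), 179 kept the file's name and 9507 had none. This gave 17502 genes, each read at its probe with the highest mean among those with a value on all 6 arrays. For 2 genes, neither of them called, this passed over a brighter probe with a missing value. A gene entered where it was well above background on day 45 or on both later days. With 1 array per day nothing was tested. Members and lists were chosen with earlier results of these data known. Named genes are, each way, the 8 largest differences past 2-fold measured on all 3 arrays, the 8 largest among brighter genes, the 4 largest bounds, called genes of 10 spots, and of each list described up to 4 members with the largest differences plus its defining genes. Some genes that this rule names are not reported here. Further members in figures, promoters and small counts were chosen after their values were seen. Alternatives covered scaling, background correction, filter, probe summary, threshold and baseline (pandas 2.3.3 and limma 3.58.1).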

Additional observations from a re-analysis of the deposited data

How the results depend on the processing

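The 103 higher genes became 21 with normexp correction, 60 in the authors' deposited table, 31 with only genes well above background on all 3 arrays, 219 with no filter and no floor and 202 at 1.5-fold. The 46 lower genes became 5, 14, 26, 393 and 282 under these settings, and 25 with quantile normalization, 29 with cyclic loess, 86 with the mean of all probes and 13 with at least 2-fold from each later day. Against a single later day the higher genes numbered 99 to 127 and the lower 117 to 129. Of the 46 lower genes 34 were still called without day 55 and 25 without day 70.

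The immediate early median stayed between -0.24 and -0.15 under every alternative run. The MHC class II median was 0.58 with loess, 0.39 with normexp, 0.77 with all probes, 0.32 with no filter, 0.57 as a mean and 0.43 to 0.62 against a single later day. The red blood cell median was -0.26 with quantile normalization, -0.27 with loess, -0.17 with normexp, -0.20 in the deposited table, -0.27 as a mean and -0.60 to -0.17 against a single day. The choroid plexus median was -0.27 with normexp, -0.34 in the deposited table, -0.22 with genes measured on all 3 arrays, -0.95 with no filter, -0.66 as a mean and -0.87 to -0.16 against a single day. The clock median was -0.049 with quantile normalization, -0.042 with loess, -0.021 in the deposited table and -0.17 to -0.09 against a single day. The causes were not tested, beyond the fewer genes or arrays a setting uses. Of 131 named genes 115 kept their direction in every alternative run. Sizes were less stable. The difference moved by more than 0.07, the SD from spots, for 80 of the 131 without day 55 and 80 without day 70, 73 with normexp, 64 in the deposited table, 57 with loess and 53 with quantile normalization. The exceptions in direction, none of them called, included Bdnf, Bhlhe40, Ciart, Dusp1, Fibcd1, Ifih1, Irf9, Neurod6, Per2, Spp1 and Stat2. The others were Egr3 (1.05 without day 55), Ttr and Kcnj13 (0.02 and 0.25 without day 70) and Steap4 and Tmem119 (-0.19 and -0.10 as the mean of probes). The 0.25 of Kcnj13 is a bound. Its day 45 value was set to the lowest signal well above background there (-6.19), so its direction against day 55 is not known. Scaling to spots well above background was chosen after seeing the data. No paired analysis was possible because each group had 1 array. Dim probes limit most 2-fold calls.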
